A study of Mus musculus with 18 samples.

Results

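The response described here is that of bone marrow labelled Cysltr1-/- to medium conditioned by EMT6 cells, and it was read in 6 of the 18 libraries of the series. The 3 libraries of labelled-deficient marrow grown with GM-CSF and EMT6 conditioned medium were set against the 3 of labelled-deficient marrow grown with GM-CSF alone, as the sample titles give them. The 6 libraries of WT marrow in the same pair of media were used only to show where the response differed between genotypes, and 6 libraries with IL-6 entered the fit without being described. Each library came from BALB/c marrow pooled from 3 mice and cultured for 4 days. All cultures received 40 ng/mL GM-CSF, and the EMT6 cultures received in addition 50% by volume of medium that EMT6 cells had conditioned for 24 h. EMT6 is an established BALB/c mammary carcinoma line. Poly(A) RNA was sequenced, and the values are read counts per gene. "Labelled-deficient" is used because the labels name the genotype without describing the allele.

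GM-CSF drives marrow progenitors into neutrophils, monocytes, macrophages and dendritic cells, and it signals largely through STAT5. Tumour-conditioned media can carry cytokines, growth factors and nucleic acids that act on the same progenitors, and G-CSF, CXC chemokines and prostaglandins are well known products of myeloid cells in tumour-bearing mice. Cysltr1 encodes the receptor for the cysteinyl leukotrienes, lipid mediators that myeloid cells make through 5-lipoxygenase and LTC4 synthase. The cultures were mixed, so fewer cells of a type and less RNA per cell cannot be told apart for any gene below.

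Cysltr1 itself was still counted in every library, with 6.20, 9.13 and 6.70 CPM in EMT6 medium cultures, against 75.2, 77.4 and 78.7 CPM in GM-CSF cultures. Transcripts of a gene with a partial deletion can still be counted over the whole gene, so these counts do not check the labelled allele, and the genotype is taken from the labels alone. The EMT6 medium libraries were shallower and carried more background. Gene counts ran from 9.58 to 13.0 M (M, 1000000) in EMT6 medium libraries and from 17.8 to 26.7 M in GM-CSF libraries. Reads in no annotated feature took 50.2% ± 0.152 of the reads in EMT6 medium libraries and 17.6% ± 0.583 in GM-CSF libraries (SD, n = 3 each). Olfactory and vomeronasal receptor genes, sensory genes with no known common use in marrow, took 0.207% ± 0.00719 of gene counts in EMT6 medium libraries and 0.0276% ± 0.00106 in GM-CSF libraries. Statements are therefore limited to genes whose mean reached 5 CPM (counts per 1000000 gene counts, on TMM-scaled library sizes) in either group, here called expressed, and the no-feature background, read density outside exons times the gene's exon length, is given beside low levels. Its part in any difference was not tested.

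**Figure D1:**
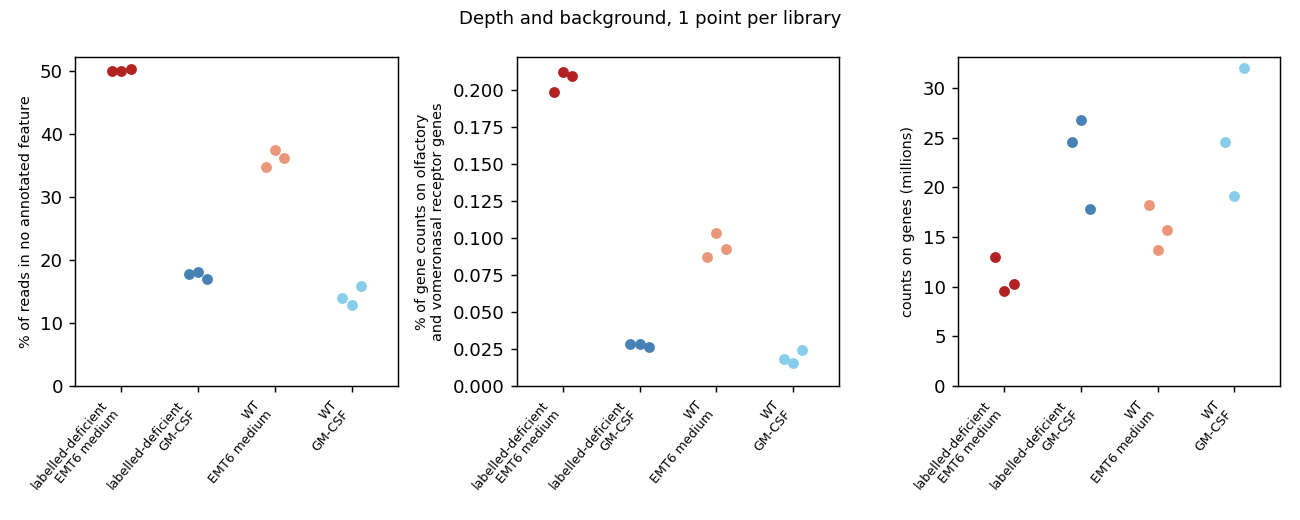
Reads in no annotated feature as a percentage of all reads, counts on olfactory and vomeronasal receptor genes as a percentage of gene counts, and counts on genes in M, with 1 point per library in the 4 groups. The labelled-deficient EMT6 medium libraries stood highest in both background measures, at 50.2% and 0.207% on average, and lowest in depth.

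Of 12963 expressed genes, 3785 were called higher with EMT6 medium (29.2%) and 8027 lower (61.9%) at an adjusted p under 0.05 in edgeR's quasi-likelihood test (Benjamini-Hochberg over 28334 genes). Changes of at least 2-fold among them numbered 2319 higher and 3862 lower. Of the 3785 genes called higher, 559 had a level in EMT6 medium under 2 times the no-feature background. The median log2 fold change of expressed genes was -0.49, whereas that of all genes tested was 0.82, of which 54.3% were called higher and 32.9% lower. These counts depend on how the libraries are scaled: scaling by library size alone moved the median of the expressed genes by 0.62 on the log2 scale, TMM on expressed genes by 0.50, and DESeq2 size factors by -0.27. A second count is therefore given, of genes called in the same direction under TMM, DESeq2 size factors, library sizes, TMM on expressed genes and 2 subtractions of background; it gave 2927 expressed genes higher (22.6%) and 5002 lower (38.6%). "Under every scaling" below means those 6 settings, and a gene near 0 under TMM has no direction that is free of the scaling. Counts over gene lists are to be read against these shares, since a share near them says nothing particular about a list. Replicates were close, and the groups did not overlap for 91.1% of expressed genes, so that absence of overlap sets no gene apart here. Nothing in the labels says whether the 3 libraries of a group came from separate cultures, and p-values then measure only the spread between these libraries.

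The genes that rose most with EMT6 medium included the growth factor gene Csf3, chemokines that attract neutrophils, interferon-stimulated genes and acute phase genes. The stretches before the annotated start of 5 of them are shown because they hold motifs of the factors that such genes are known to answer to, NF-kB for Cxcl1 and Cxcl2 and the interferon-activated complex ISGF3 for Rsad2 and Ifit3; Saa3 is an acute phase gene whose window also held a match. They were picked after the values had been seen, as those of the 12 largest rises whose RefSeq promoter window (GRCm38.p6) held a match. Each runs 5′ to 3′ on the gene's own strand over the 180 bases before the start: chr5:90891065-90891244 on the plus strand for Cxcl1, chr5:90903719-90903898 plus for Cxcl2, chr12:26456453-26456632 minus for Rsad2, chr19:34583349-34583528 plus for Ifit3 and chr7:46715677-46715856 minus for Saa3. Capitals mark the kappaB-type motif, GGG, any 3 bases and TTCC, or the interferon response type, GAAA, any 2 bases and GAAA, on either strand; read on the other strand they are GGAA, 3 bases and CCC, and TTTC, 2 bases and TTTC.
Cxcl1: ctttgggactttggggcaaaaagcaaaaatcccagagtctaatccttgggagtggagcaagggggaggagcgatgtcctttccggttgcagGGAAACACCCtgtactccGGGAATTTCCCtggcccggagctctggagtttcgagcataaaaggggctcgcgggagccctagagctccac
Cxcl2: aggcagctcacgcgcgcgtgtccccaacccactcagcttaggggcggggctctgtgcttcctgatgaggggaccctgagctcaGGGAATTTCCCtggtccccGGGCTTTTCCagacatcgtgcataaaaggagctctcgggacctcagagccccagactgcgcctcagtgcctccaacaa
Rsad2: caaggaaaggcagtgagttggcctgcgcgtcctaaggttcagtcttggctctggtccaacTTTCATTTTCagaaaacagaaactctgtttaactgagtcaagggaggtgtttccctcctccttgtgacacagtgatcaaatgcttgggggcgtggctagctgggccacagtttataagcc
Ifit3: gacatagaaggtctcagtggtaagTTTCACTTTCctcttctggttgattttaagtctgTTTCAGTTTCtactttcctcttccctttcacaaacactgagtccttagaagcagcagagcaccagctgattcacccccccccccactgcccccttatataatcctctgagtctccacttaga
Saa3: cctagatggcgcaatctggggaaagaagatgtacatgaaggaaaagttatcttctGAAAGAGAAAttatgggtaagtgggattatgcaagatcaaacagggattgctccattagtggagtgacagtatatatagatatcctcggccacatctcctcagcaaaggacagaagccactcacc
Cxcl1 held the kappaB-type motif from 89 to 80 and from 71 to 61 bases before the start. The second stretch holds overlapping matches, from 71 to 62 on the gene's own strand and from 70 to 61 on the other. Cxcl2 held it from 97 to 87, again as overlapping matches on both strands, and from 78 to 69. Ifit3 held the interferon response type from 156 to 147 and from 122 to 113, Rsad2 from 120 to 111 and Saa3 from 125 to 116. In windows from 250 bases before to 50 after the start of expressed genes, 735 of 12230 held the kappaB-type motif (6.01%) and 390 the interferon response type (3.19%). Of the 28 interferon-stimulated genes that rose under every scaling, 21 had a window. The interferon response type stood in 11 of them (52.4%) and the kappaB-type in 6 (28.6%). These shares are per gene, whereas those of expressed genes are per window. The genes were listed as known interferon-stimulated genes, so their share of the interferon response type is no finding of these data. Of the 12 largest rises 8 had a window, 3 with the interferon response type and 2 with the kappaB-type. A match is a run of letters and was not tested for binding.

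Csf3, which encodes G-CSF, the growth factor of neutrophil production, had the largest ratio. It had 24.4, 23.1 and 27.4 CPM in EMT6 medium cultures, against 0.0887, 0.0407 and 0 CPM in GM-CSF cultures, or 3 counts in all in the GM-CSF libraries. Counts gave a ratio of 527 (95% exact binomial interval 180 to 2557, counting error only). Cxcl1, a neutrophil chemokine that binds CXCR2, had 604, 616 and 678 CPM in EMT6 medium cultures, against 4.88, 3.50 and 4.46 CPM in GM-CSF cultures (log2 fold change 7.22 ± 0.09, adjusted p = 2.48e-44). The groups were far apart, and the EMT6 medium libraries close to one another. Cxcl2, a second CXCR2 ligand, had 1530.0, 1609 and 1835 CPM in EMT6 medium cultures, against 58.0, 59.3 and 58.1 CPM in GM-CSF cultures (log2 fold change 4.82 ± 0.06, adjusted p = 1.13e-43). Both genes lie in the CXC chemokine cluster of chromosome 5. Cxcr2, their receptor on neutrophils, went the other way, with 16.5, 24.5 and 16.0 CPM in EMT6 medium cultures, against 179.6, 182 and 181 CPM in GM-CSF cultures (log2 fold change -3.27 ± 0.08, adjusted p = 7.75e-34). Of the 15 CXC chemokines and neutrophil chemoattractant receptors listed, 14 were expressed, 6 rose, 6 fell and 2 did not pass the test.

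The CC chemokines split. Ccl3, also known as MIP-1 alpha, had 1308, 1481 and 1574 CPM in EMT6 medium cultures, against 98.1, 92.8 and 97.7 CPM in GM-CSF cultures (log2 fold change 3.92 ± 0.06, adjusted p = 6.14e-41). Ccl17 and Ccl22, the ligands of CCR4 that GM-CSF cultures make in quantity, fell strongly, Ccl17 to near the background. Ccl17 had 1.04, 2.02 and 0.977 CPM in EMT6 medium cultures, against 137, 138 and 146 CPM in GM-CSF cultures (log2 fold change -6.74 ± 0.12, adjusted p = 3.22e-39), where the no-feature background in EMT6 medium libraries came to 0.271 CPM. Ccl22 had 12.7, 12.6 and 9.56 CPM in EMT6 medium cultures, against 455, 459.6 and 459 CPM in GM-CSF cultures (log2 fold change -5.29 ± 0.07, adjusted p = 2.66e-43). Ccl6 fell by 2.75 on the log2 scale. Over the list, 5 of 11 expressed CC chemokines rose and 6 fell. Among the receptors of this family, Ccr2, which brings monocytes out of marrow, fell to 21.8 CPM in EMT6 medium, against 264 CPM in GM-CSF cultures on average (log2 fold change -3.61 ± 0.06, adjusted p = 6.02e-39), and Ccr7 fell as well (log2 -2.28), whereas the chemerin-binding receptor gene Ccrl2 rose (log2 fold change 3.45 ± 0.06, adjusted p = 3.60e-39).

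**Figure D2:**
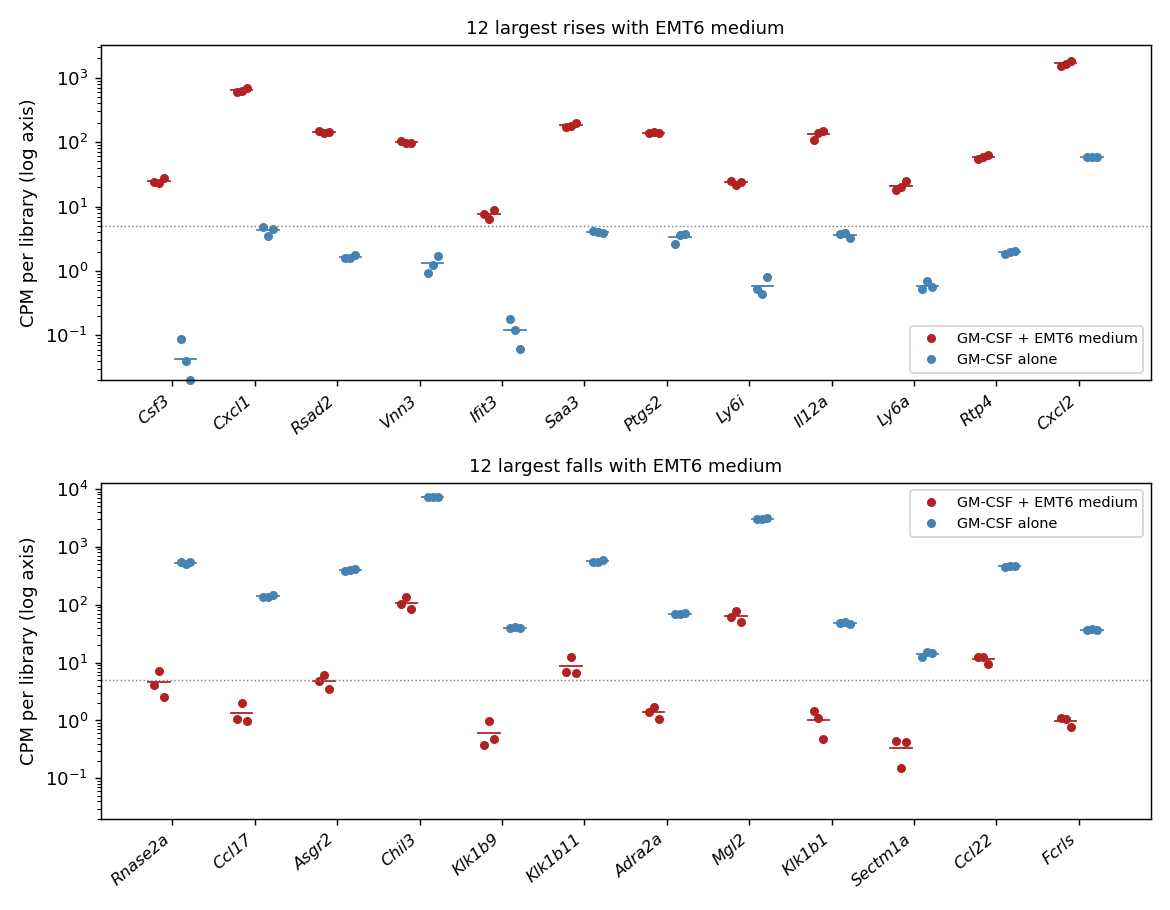
CPM of each library on a log axis for the 12 genes with the largest rises (upper panel) and the 12 with the largest falls (lower panel) in labelled-deficient marrow, EMT6 medium cultures left of GM-CSF cultures; short lines are means of 3 libraries, the dotted line is 5 CPM, and the Csf3 library without a count is drawn on the lower edge. The replicates of each culture lay close together, Cxcl2 being the most abundant of the rises and Chil3 of the falls.

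Among cytokines, Il12a, the p35 subunit of IL-12, had 108, 139 and 148 CPM in EMT6 medium cultures, against 3.81, 3.86 and 3.22 CPM in GM-CSF cultures (log2 fold change 5.16 ± 0.10, adjusted p = 8.11e-37). Il10, an anti-inflammatory cytokine, had 8.29, 9.28 and 9.14 CPM in EMT6 medium cultures, against 1.46, 1.59 and 0.557 CPM in GM-CSF cultures (log2 fold change 2.80 ± 0.20, adjusted p = 8.79e-17), low levels that stood above the no-feature background of 0.691 CPM. Tnf averaged 106 CPM in EMT6 medium and 32.6 CPM in GM-CSF cultures (log2 fold change 1.71). Il1b, the secreted IL-1 beta, had 56.7, 59.0 and 58.0 CPM in EMT6 medium cultures, against 18.4, 20.1 and 21.4 CPM in GM-CSF cultures (log2 fold change 1.54 ± 0.07, adjusted p = 1.08e-24), and Il1a rose by 3.42 on the log2 scale. Il15 rose by 1.77. Il6 moved the other way, with 8.45, 9.50 and 9.63 CPM in EMT6 medium cultures, against 27.5, 27.6 and 27.6 CPM in GM-CSF cultures (log2 fold change -1.59 ± 0.08, adjusted p = 3.05e-21). Tgfb1 fell by 2.28. The inflammasome sensor Nlrp3, the decoy receptor Il1r2 and Il18rap fell by 2.97, 1.92 and 1.80. In the IL-1 family list 5 of 13 expressed members rose and 8 fell, beside 29.2% and 61.9% of all expressed genes.

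Acute phase and NF-kB feedback genes were prominent among the rises. Saa3, an acute phase serum amyloid, had 174, 175 and 199 CPM in EMT6 medium cultures, against 4.12, 4.07 and 3.84 CPM in GM-CSF cultures (log2 fold change 5.50 ± 0.09, adjusted p = 1.07e-40), and Vnn3, a pantetheinase, had 104, 97.6 and 95.6 CPM in EMT6 medium cultures, against 0.931, 1.26 and 1.73 CPM in GM-CSF cultures (log2 fold change 6.28 ± 0.10, adjusted p = 2.21e-40). Lcn2, the siderophore-binding lipocalin of neutrophil granules, averaged 2694 CPM in EMT6 medium and 400.4 CPM in GM-CSF cultures (log2 fold change 2.75 ± 0.06, adjusted p = 3.47e-36). Nfkbiz, a nuclear regulator of NF-kB targets, rose by 2.98 and Tnfaip3, the A20 feedback inhibitor, by 2.09. The small GPI-anchored surface protein genes Ly6i and Ly6a rose, Ly6i to 23.6 CPM in EMT6 medium, against 0.595 CPM in GM-CSF cultures, and Ly6a to 20.9 CPM in EMT6 medium, against 0.593 CPM in GM-CSF cultures; they belong to a family of near copies, so reads may be shared among them. Of 24 expressed members of the TNF and NF-kB list 11 rose, 9 of them under every scaling, 9 fell and 4 did not pass the test.

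Prostaglandin synthesis was rearranged by enzyme. Ptgs2, the inducible cyclooxygenase, had 136, 145 and 136 CPM in EMT6 medium cultures, against 2.66, 3.66 and 3.78 CPM in GM-CSF cultures (log2 fold change 5.38 ± 0.08, adjusted p = 4.73e-41). Ptges, the inducible prostaglandin E synthase, rose by 3.75 on the log2 scale and averaged 56.9 CPM in EMT6 medium and 4.16 CPM in GM-CSF cultures. The constitutive cyclooxygenase Ptgs1 and the thromboxane synthase Tbxas1 fell (log2 fold change -2.58 ± 0.05, adjusted p = 2.71e-37 for Ptgs1, and log2 -3.46 for Tbxas1). In the list as a whole 4 of 14 expressed genes rose and 10 fell, beside 29.2% and 61.9% of all expressed genes.

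The leukotriene genes mostly fell. Alox5, which encodes 5-lipoxygenase, had 62.8, 69.3 and 60.1 CPM in EMT6 medium cultures, against 391, 387 and 392 CPM in GM-CSF cultures (log2 fold change -2.61 ± 0.06, adjusted p = 1.20e-35), and its activating protein gene Alox5ap fell by 1.38. Ltc4s, the synthase that makes the cysteinyl leukotriene LTC4, had 2.58, 3.82 and 2.65 CPM in EMT6 medium cultures, against 16.4, 16.1 and 16.3 CPM in GM-CSF cultures (log2 fold change -2.45 ± 0.13, adjusted p = 7.80e-21). Cysltr1 fell by 3.41 on the log2 scale, and its no-feature background in EMT6 medium libraries came to 2.71 CPM. Ltb4r1, the receptor of the neutrophil attractant LTB4, fell by 3.03 and Alox15, the 12/15-lipoxygenase, by 3.86. The second cysteinyl leukotriene receptor Cysltr2 had 4.28, 3.82 and 4.26 CPM in EMT6 medium cultures, against 7.80, 6.22 and 8.36 CPM in GM-CSF cultures; its call as lower was not kept under every scaling. Over the list 2 of 17 expressed members rose and 14 fell, 11 of them under every scaling.

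Interferon-stimulated genes rose as a group. Of 38 listed, 35 were expressed, 29 rose and 4 fell, and 28 rises were kept under every scaling. Their median log2 fold change was 2.56, against -0.49 for all expressed genes. Rsad2, which encodes the antiviral enzyme viperin, had 146, 138 and 143 CPM in EMT6 medium cultures, against 1.60, 1.59 and 1.80 CPM in GM-CSF cultures (log2 fold change 6.43 ± 0.09, adjusted p = 1.02e-41). Ifit3, which binds foreign RNA with its IFIT partners, had 7.79, 6.43 and 8.86 CPM in EMT6 medium cultures, against 0.177, 0.122 and 0.0619 CPM in GM-CSF cultures (log2 fold change 5.87 ± 0.28, adjusted p = 4.85e-23); the GM-CSF libraries held only 4, 3 and 1 counts, so its fold is imprecise. Rtp4, Oas3 and Ifi27l2a rose by 4.93, 2.98 and 4.37, Oas3 being a sensor of double-stranded RNA. Irf7, the factor that amplifies type I interferon, had 227, 244 and 264 CPM in EMT6 medium cultures, against 39.2, 39.3 and 39.2 CPM in GM-CSF cultures (log2 fold change 2.64 ± 0.06, adjusted p = 1.08e-35). The remaining 2 expressed members did not pass the test.

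The regulators of the interferon system were divided. Irf5, Irf4 and Jak2 fell by 3.61, 3.14 and 2.12. Of 23 expressed interferons, receptors and regulators 7 rose, 13 fell and 3 did not pass the test. These shares were near the 29.2% higher and 61.9% lower of all expressed genes. Guanylate-binding proteins and immunity-related GTPases, a group that interferon-gamma is known to drive, were divided 4 higher and 4 lower among 11 expressed. Gbp9 rose by 0.81, and Gbp8 and Irgm2 fell by 1.67 and 1.32.

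**Figure D3:**
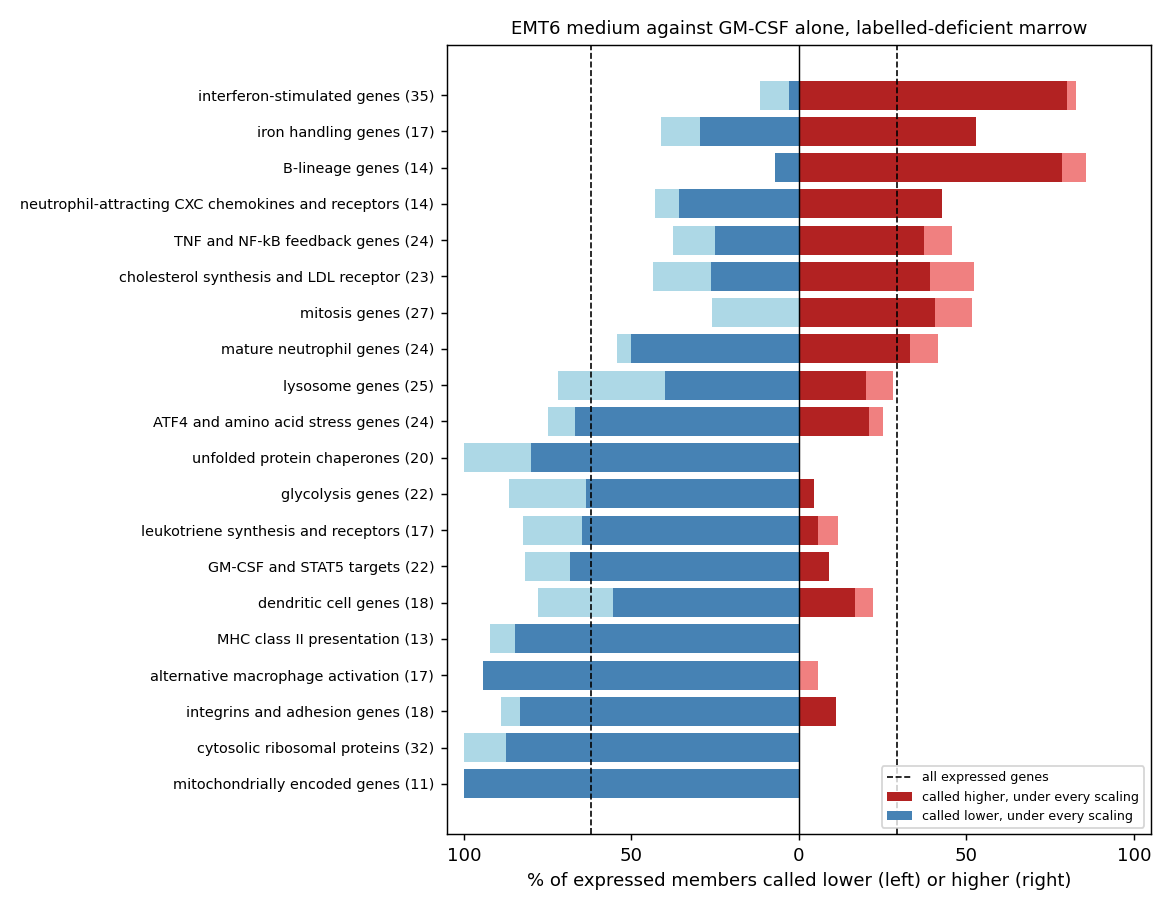
Percentage of the expressed members of 20 gene lists (number expressed in brackets) called lower (left) or higher (right) with EMT6 medium in labelled-deficient marrow; full colour is the part called under every scaling, pale the rest, and the dashed lines are the 61.9% and 29.2% of all expressed genes. Interferon-stimulated and B-lineage genes stood mostly on the right, and alternative activation, MHC class II, ribosomal and mitochondrially encoded genes on the left.

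Genes of alternative activation, a macrophage state that IL-4 is known to induce, fell strongly. Chil3, which encodes the chitinase-like protein Ym1, had 102, 137 and 82.8 CPM in EMT6 medium cultures, against 7319.5, 7182 and 7365 CPM in GM-CSF cultures (log2 fold change -6.09 ± 0.09, adjusted p = 5.13e-41). Mgl2, a galactose-type lectin of macrophages and dendritic cells, had 60.2, 78.3 and 50.4 CPM in EMT6 medium cultures, against 3050.4, 3018 and 3113 CPM in GM-CSF cultures (log2 fold change -5.61 ± 0.08, adjusted p = 1.63e-41), and Asgr2, a related lectin gene, had 4.77, 6.21 and 3.56 CPM in EMT6 medium cultures, against 385, 399 and 415 CPM in GM-CSF cultures (log2 fold change -6.37 ± 0.09, adjusted p = 3.23e-42). Arg1, arginase 1, had 139, 190.2 and 128 CPM in EMT6 medium cultures, against 3732, 3622 and 3825 CPM in GM-CSF cultures (log2 fold change -4.62 ± 0.08, adjusted p = 3.85e-39), so that it remained abundant at a far lower level. Retnla, the resistin-like protein of alternative activation, fell by 5.11 on the log2 scale. Of 17 expressed genes of alternative activation 16 fell, all under every scaling, and 1 was called higher, though not under every scaling; their median was -3.10.

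Targets of GM-CSF and STAT5 mostly fell: 18 of 22 expressed members fell, 15 under every scaling, and 2 rose. Socs2, a feedback inhibitor downstream of STAT5, fell by 3.10. Both chains of the GM-CSF receptor were lower, Csf2ra with 77.3, 72.9 and 73.1 CPM in EMT6 medium cultures, against 456, 445 and 451 CPM in GM-CSF cultures (log2 fold change -2.60 ± 0.05, adjusted p = 2.12e-36) and Csf2rb with 660.3, 719 and 661 CPM in EMT6 medium cultures, against 3438, 3308 and 3317 CPM in GM-CSF cultures (log2 fold change -2.30 ± 0.05, adjusted p = 6.56e-35). Csf1r, the M-CSF receptor of monocytes and macrophages, averaged 137 CPM in EMT6 medium and 714 CPM in GM-CSF cultures (log2 fold change -2.38 ± 0.05, adjusted p = 2.67e-35), and Csf1 fell by 2.83. Csf3r, the G-CSF receptor, fell by 0.95. Socs3, the feedback gene of STAT3, did not pass the test, with 298, 300.0 and 301 CPM in EMT6 medium cultures, against 318, 306 and 308 CPM in GM-CSF cultures. In the IL-6 and STAT3 list 7 of 24 expressed members rose and 13 fell, beside 29.2% and 61.9% of all expressed genes. Gadd45g rose by 2.76 and Tgm2 fell by 3.69.

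Genes of antigen presentation by MHC class II were lower too. Cd74, the invariant chain, had 531, 553 and 557 CPM in EMT6 medium cultures, against 3815, 3879 and 3872 CPM in GM-CSF cultures (log2 fold change -2.82 ± 0.05, adjusted p = 9.80e-40), and H2-Aa had 136, 155 and 151 CPM in EMT6 medium cultures, against 688, 687 and 721 CPM in GM-CSF cultures (log2 fold change -2.25 ± 0.06, adjusted p = 1.20e-33). H2-DMb2 and H2-Ab1 fell by 3.57 and 2.49, and H2-Oa (0.17) did not pass the test. Of 13 expressed class II genes 12 fell, with a median of -2.47. Class I genes divided, 9 higher and 8 lower of 19; the peptide trimming and proteasome genes Erap1, Psmb10 and Psmb8 fell by 2.13, 1.88 and 1.35, whereas H2-Q6, one of several near copies, rose by 1.23. Dendritic cell genes fell in 14 of 18 cases, led by Itgax, the CD11c integrin, which averaged 29.6 CPM in EMT6 medium and 792 CPM in GM-CSF cultures (log2 fold change -4.74 ± 0.08, adjusted p = 9.25e-39). Fscn1 and Clec10a fell by 3.03 and 2.98. Of the 14 falls 10 held under every scaling. The other 4 members rose, among them Flt3, a dendritic cell marker (1.59), and Cadm1 (1.51), both under every scaling.

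Checkpoint and costimulatory genes moved in both directions. Cd274, which encodes PD-L1, had 908, 939 and 954 CPM in EMT6 medium cultures, against 305, 301 and 291 CPM in GM-CSF cultures (log2 fold change 1.64 ± 0.05, adjusted p = 8.15e-31). Pdcd1lg2, PD-L2, fell by 2.72 and Cd200r1 by 2.20, and Cd47, the ligand of SIRP alpha, by 1.52. Nos2, the inducible nitric oxide synthase, had 277, 265 and 269.9 CPM in EMT6 medium cultures, against 125, 124 and 119 CPM in GM-CSF cultures (log2 fold change 1.14 ± 0.06, adjusted p = 5.45e-22), while the arginine transporters Slc7a2 and Slc7a1 and the synthase Ass1 fell by 3.62, 2.92 and 1.70. Of 15 expressed checkpoint and costimulatory genes 2 rose and 11 fell.

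Defining macrophage and monocyte genes moved in both directions, and the share of such genes that fell was near that of all expressed genes. Fn1, fibronectin, was among the most abundant transcripts of GM-CSF cultures, with 154, 242 and 116 CPM in EMT6 medium cultures, against 5842, 5319 and 5154 CPM in GM-CSF cultures (log2 fold change -5.00 ± 0.13, adjusted p = 7.75e-33). Adgre1, the F4/80 antigen, had 209, 224 and 225 CPM in EMT6 medium cultures, against 538, 533 and 548 CPM in GM-CSF cultures (log2 fold change -1.30 ± 0.05, adjusted p = 1.53e-26). Mrc1, the mannose receptor, and Cd36, a scavenger receptor, fell by 3.79 and 3.38, and Itgam, the CD11b integrin, by 2.62. The monocyte marker Ly6c2 and the macrophage marker Cd68 rose by 1.03 and 0.66, both under every scaling. Of 20 expressed macrophage and scavenger genes 14 fell and 4 rose, and of 16 monocyte genes 11 fell and 5 rose, beside the 61.9% lower and 29.2% higher among all expressed genes. Lipid-handling genes of macrophages were less uniform: Lpl, lipoprotein lipase, Mmp12, macrophage elastase, and Trem2 fell by 4.47, 4.02 and 2.59, but 7 of 20 members rose and 3 did not pass the test. C-type lectins fell in 13 of 17 cases, integrins and adhesion genes in 16 of 18.

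Neutrophil genes were divided. The alarmin genes S100a8 and S100a9 stayed abundant at a lower level. S100a8 had 231, 309 and 296 CPM in EMT6 medium cultures, against 1044, 1062 and 1132 CPM in GM-CSF cultures (log2 fold change -1.96 ± 0.07, adjusted p = 6.63e-28). S100a9 fell by 1.62. Mpo, myeloperoxidase of primary granules, had 21.6, 24.3 and 19.8 CPM in EMT6 medium cultures, against 189.9, 187 and 192 CPM in GM-CSF cultures (log2 fold change -3.12 ± 0.06, adjusted p = 1.94e-36), and Ltf, lactoferrin of secondary granules, fell by 3.86. Ly6g, the marker used to identify mouse neutrophils, had 72.2, 73.9 and 75.3 CPM in EMT6 medium cultures, against 66.4, 70.1 and 67.8 CPM in GM-CSF cultures, a difference whose call was not kept under every scaling. Prtn3, the serine protease of primary granules, had 39.8, 53.6 and 56.1 CPM in EMT6 medium cultures, against 45.1, 46.7 and 44.9 CPM in GM-CSF cultures and did not pass the test. Of 24 expressed mature neutrophil genes 10 rose and 13 fell, Trem1 and Cd177 by 3.47 and 1.98. Primary granule genes numbered 2 higher and 8 lower of 12, and secondary and tertiary granule genes 4 higher and 15 lower of 21. Counts of all 3 lists are to be read beside 29.2% higher and 61.9% lower among all expressed genes. The marker genes of neutrophils, monocytes and macrophages were thus present in both cultures.

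Other falls led the list without forming one pathway. Rnase2a, an eosinophil-type ribonuclease with near copies in the mouse, had 4.06, 7.26 and 2.51 CPM in EMT6 medium cultures, against 539.9, 511 and 548 CPM in GM-CSF cultures (log2 fold change -6.88 ± 0.11, adjusted p = 1.69e-40). The kallikreins Klk1b11, Klk1b9 and Klk1b1, neighbours on chromosome 7 whose sequences are so alike that reads cannot be assigned to one with confidence, fell together; Klk1b11 had 6.80, 12.6 and 6.63 CPM in EMT6 medium cultures, against 547, 553 and 588 CPM in GM-CSF cultures (log2 fold change -6.05 ± 0.10, adjusted p = 3.57e-40), and Klk1b9 and Klk1b1 lay near the no-feature background in EMT6 medium, Klk1b9 at 0.615 CPM in EMT6 medium and 39.5 CPM in GM-CSF cultures and Klk1b1 at 1.03 CPM in EMT6 medium and 48.1 CPM in GM-CSF cultures. Adra2a, an adrenergic receptor gene, Fcrls, an Fc receptor-like scavenger receptor, and Sectm1a were likewise at background in EMT6 medium, Adra2a with 1.40 CPM in EMT6 medium and 69.8 CPM in GM-CSF cultures, Fcrls with 0.971 CPM in EMT6 medium and 37.2 CPM in GM-CSF cultures and Sectm1a with 0.336 CPM in EMT6 medium and 14.0 CPM in GM-CSF cultures; their no-feature backgrounds in EMT6 medium came to 2.55, 1.23 and 0.892 CPM.

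Iron genes were divided, and abundant members rose. Hmox1, heme oxygenase 1, had 2551, 2512 and 2603 CPM in EMT6 medium cultures, against 359, 364 and 363 CPM in GM-CSF cultures (log2 fold change 2.82 ± 0.05, adjusted p = 2.61e-40), and Fth1, the ferritin heavy chain, which has processed copies in the genome, averaged 36223 CPM in EMT6 medium and 9244 CPM in GM-CSF cultures. Hfe, which restrains iron uptake, fell by 4.85. Of 17 expressed iron genes 9 rose, all under every scaling, and 7 fell. Of 21 antioxidant genes 4 were higher, among them Hmox1 again and Sod2 (1.45). The 14 that were lower, 7 of them under every scaling, included Gpx1 and G6pdx (log2 -1.99 and -1.81). These counts stand beside 29.2% higher and 61.9% lower among all expressed genes. Lysosome genes fell in 18 of 25 cases, 10 of them under every scaling, and 7 rose, shares near those of all expressed genes; the proteases Ctsc and Ctss fell by 2.99 and 1.82.

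Genes of translation, respiration and glycolysis were mostly lower. Cytosolic ribosomal protein genes fell in 32 of 32 cases, 28 under every scaling. Mitochondrially encoded genes fell in 11 of 11, with a median of -3.08, and nuclear genes of oxidative phosphorylation in 25 of 26, 17 of these under every scaling. Glycolysis genes fell in 19 of 22 cases, 14 under every scaling, among them Eno1 and Pfkp (-1.84 and -1.97), and Pfkfb3, whose product makes the activator of phosphofructokinase, was the 1 that rose (log2 fold change 1.91 ± 0.06, adjusted p = 2.21e-30). Hilpda, a lipid droplet protein gene known as a hypoxia target, rose by 2.44, whereas other hypoxia genes such as Pdk1 and Egln3 fell (-1.72 and -1.16). Endoplasmic reticulum chaperone genes fell in 20 of 20, Xbp1 by 2.70 and Hsp90b1 by 1.19.

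The same medium was also given to WT marrow, and the test of the interaction, the difference between the log2 fold changes of the 2 genotypes (labelled-deficient minus WT), asks where the responses were unequal. Of 13193 genes expressed in any of the 4 groups, the difference was called positive for 2829 (21.4%) and negative for 3345 (25.4%), and 1564 (11.9%) and 2331 (17.7%) held under every scaling; its median was 0.004. In WT marrow alone 2334 of 11889 expressed genes rose (19.6%) and 8379 fell (70.5%). Neither fold change is independent of the levels in GM-CSF cultures, which differed between genotypes for many of the genes below. Levels in all 4 groups are therefore given for most genes described in full.

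Cholesterol synthesis genes differed in 1 direction. All 25 genes of the list that were expressed had a positive difference, 24 under every scaling, with a median of 1.39. In labelled-deficient marrow 12 of 23 rose and 10 fell, whereas in WT marrow 1 of 25 rose and 24 fell. Hmgcs1, HMG-CoA synthase, averaged 139 CPM in EMT6 medium and 58.1 CPM in GM-CSF cultures of labelled-deficient marrow, and 87.7 CPM in EMT6 medium and 177 CPM in GM-CSF cultures of WT marrow (difference 2.27 ± 0.07, adjusted p = 4.04e-28). Insig1, which retains the sterol sensor in the endoplasmic reticulum, averaged 149 CPM in EMT6 medium and 35.3 CPM in GM-CSF cultures of labelled-deficient marrow, and 181 CPM in EMT6 medium and 93.9 CPM in GM-CSF cultures of WT marrow (difference 1.13 ± 0.08, adjusted p = 1.06e-14). The GM-CSF cultures of labelled-deficient marrow were the lowest of the 4 groups for both genes. Msmo1 differed by 1.70. Summed over the list, the level was 1591 ± 36.2 CPM in EMT6 medium and 1284 ± 8.8 CPM in GM-CSF cultures of labelled-deficient marrow, and 1478 ± 44.2 CPM in EMT6 medium and 2947 ± 91.3 CPM in GM-CSF cultures of WT marrow (mean ± SD, n = 3 each). Fatty acid synthesis genes behaved likewise in 11 of 15 cases by the sign of the called difference, although 11 of 15 fell in labelled-deficient marrow itself, Fasn by 1.70.

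Mitosis genes showed the same direction. The difference was positive for 27 of 27, all under every scaling. In labelled-deficient marrow 14 of 27 were called higher and 7 lower, with a median of 0.15; in WT marrow 27 of 27 fell. In labelled-deficient marrow 11 of the rises and none of the 7 falls held under every scaling. Cenpa, the centromeric histone, averaged 111 CPM in EMT6 medium and 56.1 CPM in GM-CSF cultures of labelled-deficient marrow, and 117 CPM in EMT6 medium and 126 CPM in GM-CSF cultures of WT marrow (difference 1.09 ± 0.07, adjusted p = 3.04e-16), and Bub1, a spindle checkpoint kinase, averaged 34.7 CPM in EMT6 medium and 22.4 CPM in GM-CSF cultures of labelled-deficient marrow, and 34.5 CPM in EMT6 medium and 52.6 CPM in GM-CSF cultures of WT marrow (difference 1.23 ± 0.09, adjusted p = 3.77e-15). The EMT6 medium levels of both genes were close in the 2 genotypes, and it was the GM-CSF levels that were far apart. In labelled-deficient marrow 6 mitosis genes did not pass the test. DNA replication genes had a called positive difference in 20 of 26 cases and a negative one in 0.

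**Figure D4:**
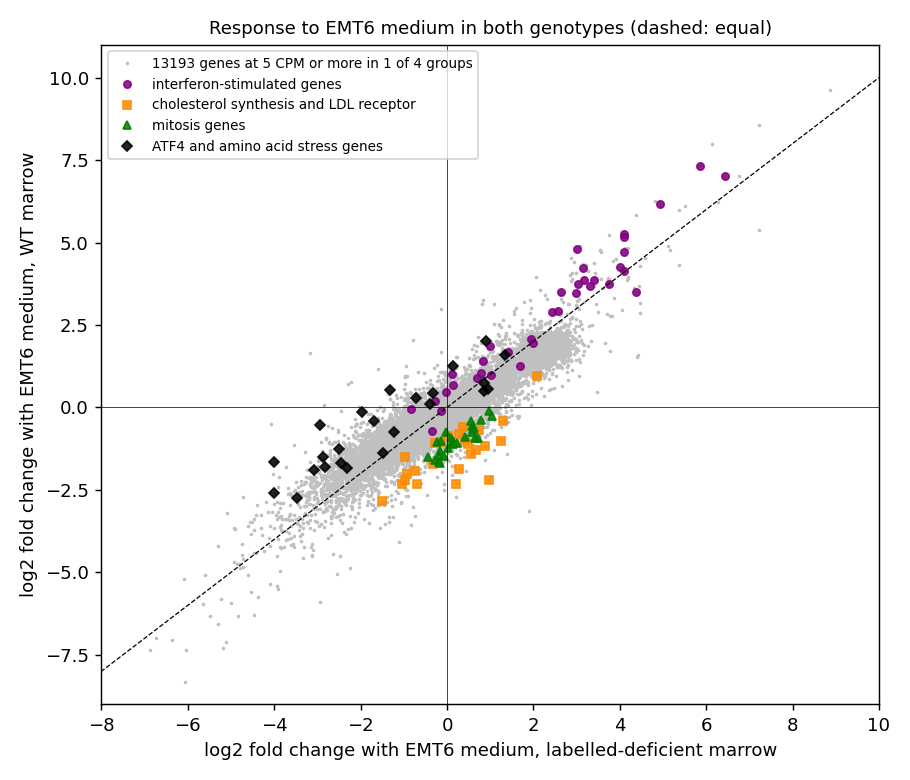
Log2 fold change with EMT6 medium in labelled-deficient marrow (horizontal) against that in WT marrow (vertical), 1 grey point per gene at 5 CPM or more in 1 of the 4 groups (13193 genes), with 4 lists marked; the dashed line is equality. Cholesterol synthesis and mitosis genes lay below the line, and most ATF4 genes above it.

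**Figure D5:**
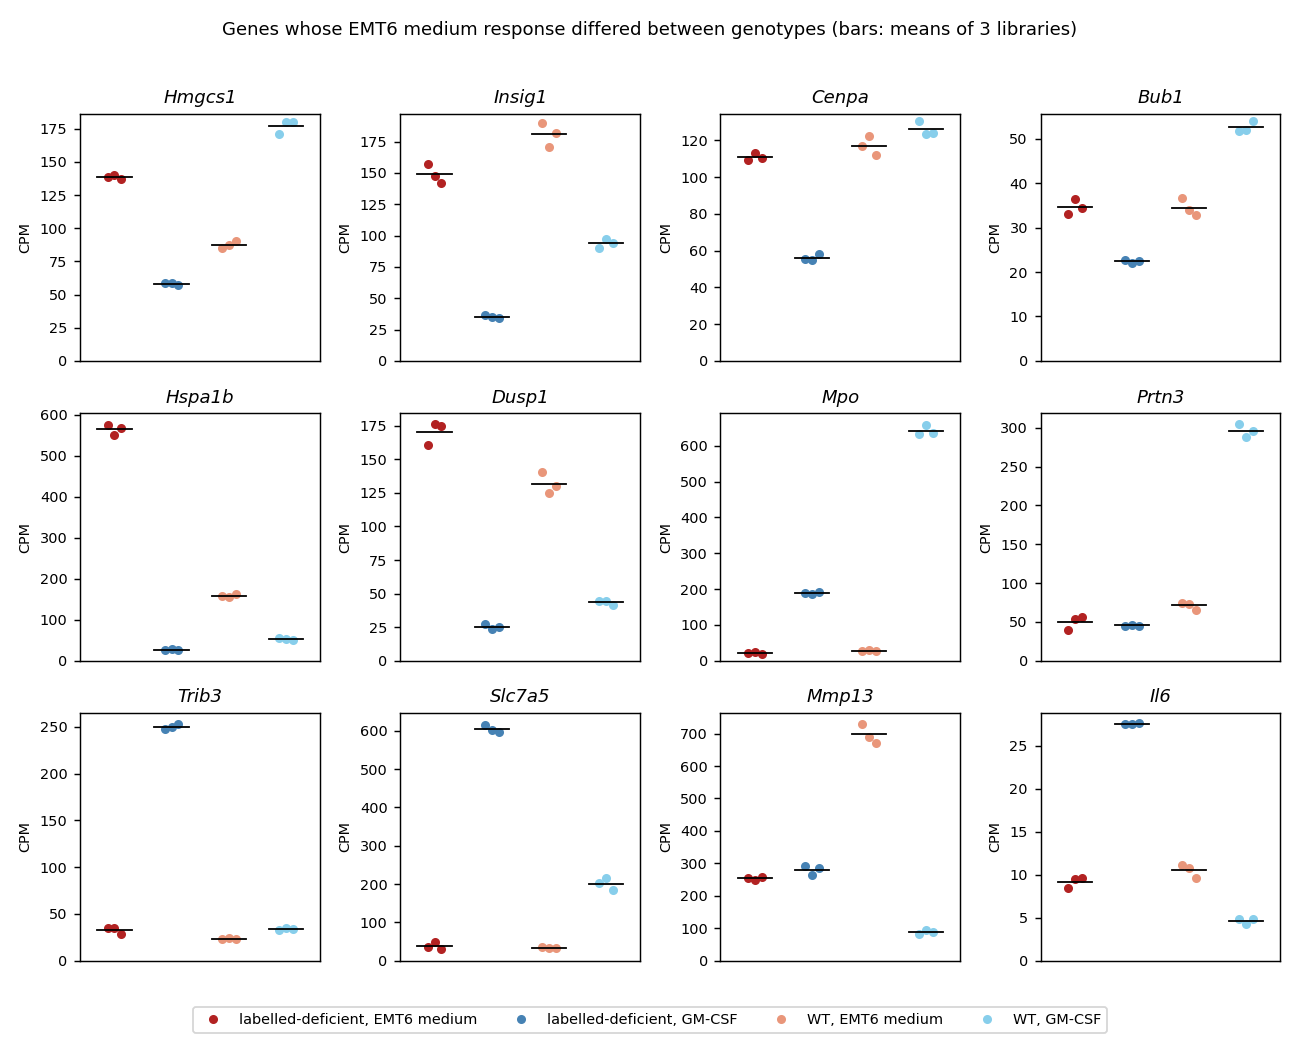
CPM of each library (linear axes from 0) for 12 genes whose response differed between genotypes, in 4 groups: labelled-deficient EMT6 medium, labelled-deficient GM-CSF, WT EMT6 medium and WT GM-CSF; bars are means of 3 libraries. For Trib3, Slc7a5 and Il6 the labelled-deficient GM-CSF cultures were the highest of the 4 groups, and for Hmgcs1, Insig1, Cenpa, Bub1, Hspa1b and Dusp1 they were the lowest.

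Stress genes went in opposite directions. Genes induced by ATF4 when amino acids are short fell in 18 of 24 cases in labelled-deficient marrow (median -1.59), 16 of them under every scaling. Among all expressed genes 61.9% fell. Their difference from WT was negative for 19 and positive for 2 of 24, beside 25.4% and 21.4% of genes expressed in any of the 4 groups. Trib3, a pseudokinase of that response, averaged 32.6 CPM in EMT6 medium and 250.1 CPM in GM-CSF cultures of labelled-deficient marrow, and 23.3 CPM in EMT6 medium and 33.9 CPM in GM-CSF cultures of WT marrow (difference -2.40 ± 0.09, adjusted p = 1.08e-24), and the amino acid transporter gene Slc7a5 averaged 37.7 CPM in EMT6 medium and 605 CPM in GM-CSF cultures of labelled-deficient marrow, and 33.3 CPM in EMT6 medium and 201 CPM in GM-CSF cultures of WT marrow (difference -1.42 ± 0.11, adjusted p = 5.69e-14). The inducible HSP70 genes Hspa1b and Hspa1a, near copies whose reads may be shared, rose far more in labelled-deficient marrow: Hspa1b had 575, 549.9 and 568 CPM in EMT6 medium cultures, against 26.0, 27.9 and 25.3 CPM in GM-CSF cultures in labelled-deficient marrow and averaged 159 ± 4.02 CPM in EMT6 medium and 52.7 ± 2.56 CPM in GM-CSF cultures of WT marrow (difference 2.82 ± 0.08, adjusted p = 1.11e-29). Other heat shock genes were divided, and Hspd1 and Hsp90ab1 fell by 2.11 and 1.17. Over the list 5 of 15 rose, 4 of them under every scaling, 7 fell and 3 did not pass the test. All expressed genes were 29.2% higher and 61.9% lower. Dusp1, an early response phosphatase, averaged 171 CPM in EMT6 medium and 25.5 CPM in GM-CSF cultures of labelled-deficient marrow, and 132 CPM in EMT6 medium and 43.6 CPM in GM-CSF cultures of WT marrow (difference 1.14 ± 0.09, adjusted p = 1.26e-14).

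Several inflammatory genes responded less in labelled-deficient marrow than in WT marrow. For Cxcl1 and Cxcl2 the differences were -1.33 ± 0.16 and -1.44 ± 0.08 on the log2 scale. Cxcl1 averaged 633 CPM in EMT6 medium and 4.28 CPM in GM-CSF cultures of labelled-deficient marrow, and 1022 CPM in EMT6 medium and 2.63 CPM in GM-CSF cultures of WT marrow, and Cxcl2 averaged 1658 CPM in EMT6 medium and 58.5 CPM in GM-CSF cultures of labelled-deficient marrow, and 2392 CPM in EMT6 medium and 31.0 CPM in GM-CSF cultures of WT marrow. Irf7 and Cd274 differed by -0.81 and -0.53, and interferon-stimulated genes had a negative difference in 19 and a positive one in 2 of 36 cases. Ptges differed by -1.49. Mmp13, collagenase 3, averaged 254 CPM in EMT6 medium and 281 CPM in GM-CSF cultures of labelled-deficient marrow, and 697 CPM in EMT6 medium and 88.7 CPM in GM-CSF cultures of WT marrow (difference -3.12 ± 0.07, adjusted p = 3.02e-32), so that it rose with EMT6 medium in WT marrow and its small change in labelled-deficient marrow (-0.14) was not kept under every scaling. Il6 had opposite directions, at 9.19 CPM in EMT6 medium and 27.6 CPM in GM-CSF cultures of labelled-deficient marrow, and 10.5 CPM in EMT6 medium and 4.67 CPM in GM-CSF cultures of WT marrow (difference -2.75 ± 0.13, adjusted p = 9.26e-21). Csf3 differed by -0.75 with an SE of 1.10, which was not called; in that test the low GM-CSF counts leave a wide interval. Granule genes had a positive difference more often than a negative one. Among all genes expressed in any of the 4 groups 21.4% were positive and 25.4% negative. Mature neutrophil genes did likewise, with 14 of 24 positive and 3 negative. Mpo fell less in labelled-deficient marrow and averaged 21.9 CPM in EMT6 medium and 189 CPM in GM-CSF cultures of labelled-deficient marrow, and 28.6 CPM in EMT6 medium and 643 CPM in GM-CSF cultures of WT marrow (difference 1.38 ± 0.09, adjusted p = 1.19e-16), and 8 of 13 primary granule genes had a positive difference and 3 a negative one; among secondary and tertiary granule genes 11 of 21 were positive and 4 negative.

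Markers of other cell types were also measured. B-lineage genes were called higher in 12 of 14 expressed cases, their summed level over 19 tested members being 626 to 705 CPM in EMT6 medium and 294 to 304 CPM in GM-CSF cultures. Ighm rose by 1.37 and Ebf1 by 1.98, whereas Ighd fell by 2.82. T and NK cell genes ran from 62.9 to 64.5 CPM in EMT6 medium and from 34.0 to 35.6 CPM in GM-CSF cultures; the median log2 fold change of the 18 members tested was 0.18, and 3 of them were expressed. Cd3e, a T cell receptor subunit, averaged 14.9 CPM in EMT6 medium and 2.92 CPM in GM-CSF cultures, where the no-feature background in EMT6 medium was 2.15 CPM. Stromal and endothelial genes summed to 391 to 414 CPM in EMT6 medium and 395 to 399 CPM in GM-CSF cultures, ranges that overlap. Of 16 expressed members, however, 12 were called higher, 11 of them under every scaling, and 4 lower. Their median log2 fold change was 2.07. Col1a1 averaged 19.8 CPM in EMT6 medium and 3.45 CPM in GM-CSF cultures, with a no-feature background of 3.46 CPM in EMT6 medium. Epithelial and mammary carcinoma genes summed to 94.4 to 114 CPM in EMT6 medium and 1128 to 1154 CPM in GM-CSF cultures; Cdh1, which GM-CSF myeloid cultures express, fell by 4.80, and Grhl2 rose by 2.68 to 12.4 CPM in EMT6 medium, against 1.97 CPM in GM-CSF cultures, and Krt7 by 2.40 to 6.04 CPM in EMT6 medium, against 1.14 CPM in GM-CSF cultures, beside backgrounds of 4.54 and 3.72 CPM in EMT6 medium. Eosinophil genes were 3 higher and 7 lower of 11, and mast cell and basophil genes 4 higher and 7 lower of 12. These shares were near the 29.2% higher and 61.9% lower of all expressed genes. Among eosinophil genes Ear2, Alox15 and Siglecf fell (log2 -4.75, -3.86 and -1.55), whereas the granule genes Epx and Prg2 rose by 1.74 and 1.88. The part of the background in these rises was not tested.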

How the data were processed

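Marrow cultures of 6 groups with 3 libraries each were sequenced as bulk poly(A) RNA. The deposited values are raw read counts per gene, 1 file per library, made by the authors with HISAT2 2.1.0 and HTSeq 0.13.5 on mm10, per the submitters' processing notes; annotation, strand setting and filters are not given in the sources used here. The library kit is not stated to be directional, so counts of genes that overlap on opposite strands are uncertain, as are those of near-identical copies. Left out were HTSeq's 5 summary lines, 97 spike-ins without a count and 26248 numbered entries, which held between 0.0399% and 0.446% of each library's feature counts. The table of normalized values in the series, also deposited by the authors, was not used.

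From the counts, edgeR 4.0.16 in R 4.3.3 (quasi-likelihood F test, TMM, filterByExpr) was fitted with a mean for each of the 6 groups to the 18 libraries together, and Benjamini-Hochberg adjustment ran over 28334 genes in each comparison; a gene with an adjusted p under 0.05 is called. The common biological coefficient of variation was 0.048. SE is the log2 fold change over the root of F. CPM are on TMM-scaled library sizes. Symbols and coordinates come from GENCODE M21 (GRCm38), promoter windows from RefSeq. The fit was tested on simulated data. Alternatives were DESeq2 1.42.0, other scalings and filters, subtraction of 2 background estimates, the replicate block and leaving out each library. Genes named are the 12 largest rises and falls, the 6 largest differences between genotypes in each direction, up to 4 members with the smallest p per list, members not called, and a fixed set; of these some are not printed, and a few further list members are shown. Members and lists were chosen with earlier results of these data known. Some items are not reported here.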

Additional observations from a re-analysis of the deposited data

Results flagged for a closer look

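The responses of the 2 genotypes to EMT6 medium differed, by the test of the interaction, for each gene given here, as the log2 fold change in labelled-deficient marrow minus that in WT marrow. The differences were positive for Hspa1a (2.87), Hspa1b (2.82), Hmgcs1 (2.27), Msmo1 (1.70), Mpo (1.38), Bub1 (1.23), Dusp1 (1.14), Insig1 (1.13) and Cenpa (1.09). They were negative for Mmp13 (-3.12), Il6 (-2.75), Trib3 (-2.40), Ptges (-1.49), Cxcl2 (-1.44), Slc7a5 (-1.42), Cxcl1 (-1.33), Irf7 (-0.81) and Cd274 (-0.53).

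Of the remaining genes with the largest differences, some lay higher in GM-CSF cultures of WT marrow than in the other 3 groups. Retnlg, a resistin-like gene of neutrophils, averaged 2.67 CPM in EMT6 medium and 20.2 CPM in GM-CSF cultures of labelled-deficient marrow, and 2.13 CPM in EMT6 medium and 126 CPM in GM-CSF cultures of WT marrow (difference 2.96 ± 0.20, adjusted p = 9.64e-16). Arhgap19, a GTPase activator gene, averaged 11.5 CPM in EMT6 medium and 4.39 CPM in GM-CSF cultures of labelled-deficient marrow, and 24.1 CPM in EMT6 medium and 64.0 CPM in GM-CSF cultures of WT marrow (difference 2.79 ± 0.12, adjusted p = 2.78e-22). Rtn1, a reticulon gene, differed by 2.90 and Lilra5, a leukocyte receptor gene, by 2.99; both were under 5 CPM on average in both labelled-deficient groups, and the call for Lilra5 did not hold under every scaling. A second set was highest in GM-CSF cultures of labelled-deficient marrow. Fndc3c1 averaged 4.26 CPM in EMT6 medium and 38.5 CPM in GM-CSF cultures of labelled-deficient marrow, and 1.99 CPM in EMT6 medium and 0.610 CPM in GM-CSF cultures of WT marrow (difference -4.82 ± 0.26, adjusted p = 4.24e-19). Rbp4, the retinol-binding protein, had 2.41, 1.80 and 1.74 CPM in EMT6 medium cultures, against 35.6, 31.3 and 36.5 CPM in GM-CSF cultures in labelled-deficient marrow (difference -3.57 ± 0.31, adjusted p = 1.07e-12). Hbegf, a ligand of the EGF receptor, averaged 28.2 CPM in EMT6 medium and 131 CPM in GM-CSF cultures of labelled-deficient marrow, and 62.2 CPM in EMT6 medium and 36.5 CPM in GM-CSF cultures of WT marrow (difference -2.99 ± 0.08, adjusted p = 1.11e-29), and Car6 and Slc6a9 differed by -3.01 and -2.92.

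Reads in no annotated feature took 50.2% of the reads in EMT6 medium libraries of labelled-deficient marrow, above the 17.6% of their GM-CSF libraries and the 36.2% of EMT6 medium libraries and 14.2% of GM-CSF libraries of WT marrow. They lie outside the counted genes and their part in the differences was not tested.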

How the results depend on the processing

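The direction and call of most named genes did not depend on the settings tried. Over all alternatives and leave-one-out fits, 3499 values of single genes stayed the same, 21 passed the threshold anew, 4 lost it and 20 reversed. Here the same means that direction and call were kept, or that the gene was called in neither fit. Counts over the gene lists stayed within 1.5 times in 4011 cases and moved further in 549. The counts over all genes moved more, with the scaling and the filter. Among expressed genes of labelled-deficient marrow, the count called higher was 5775 with TMM on expressed genes, 5756 with a filter at a mean of 5 CPM and 6332 with library sizes only, against 3785 as reported, and with library sizes only 5002 were called lower, against 8027. The share of higher calls among all calls was thus far larger under those 3 settings. Among all genes tested there, 9586 were called higher after subtraction of the no-feature background, 5881 higher and 5693 lower with that filter, which leaves fewer genes to test, and 5560 lower with library sizes only, against 15383 higher and 9317 lower. In WT marrow 4248, 4233 and 4486 expressed genes were called higher with TMM on expressed genes, the filter at 5 CPM and library sizes only, and 5382 lower with library sizes only. For the interaction, 1781 differences were positive with DESeq2, 1872 with DESeq2 size factors, 1353 with no low-count filter and 1734 after subtraction of the receptor-gene background, and 5747 were negative with no filter and 5201 after that subtraction, against 2829 positive and 3345 negative. The last subtraction was chosen after the data had been seen. The cause of these moves was not tested.

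Mmp13 reversed in labelled-deficient marrow, to 0.36 with TMM on expressed genes and with the filter at 5 CPM, 0.16 after background subtraction and 0.47 with library sizes only. Socs3, not called as reported, was called higher under the same settings, at 0.45, 0.45, 0.25 and 0.57. Ly6g reversed to -0.15 with DESeq2 and with its size factors, -0.16 with no filter and -0.012 with only the groups compared, and lay between -0.135 and -0.082 when 1 library was left out. Prtn3 was called lower with no filter (-0.16) and without EMT6 medium replicate 3 (-0.187), within a range of -0.187 to 0.054 over the leave-one-out fits.

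Leaving out 1 library gave 3147 to 3210 expressed genes called higher and 8740 to 8807 lower in labelled-deficient marrow (13898 to 14405 and 10221 to 10336 of all tested), 1911 to 2287 and 8302 to 8893 in WT marrow, and 1810 to 2600 positive and 3281 to 4369 negative differences. The positive differences fell furthest without replicate 1 (1822) or replicate 2 (1810) of the labelled-deficient GM-CSF libraries. Deviations of same-numbered libraries from their group means correlated at 0.046, -0.063 and 0.016 between the labelled-deficient cultures, so the numbers were not taken as pairs; with the replicate block 3789 expressed genes were called higher and 8032 lower. Depth, at 9.58 to 13.0 M gene counts in EMT6 medium libraries, limits what can be seen of genes near the background.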

Other observations

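Genes of cell survival, sensing and tissue remodelling, not described above, also moved with EMT6 medium in labelled-deficient marrow. Cdkn2b, which encodes the cyclin-dependent kinase inhibitor p15, had 2.74, 2.02 and 1.81 CPM in EMT6 medium cultures, against 47.1, 46.8 and 48.6 CPM in GM-CSF cultures (log2 fold change -4.40 ± 0.10, adjusted p = 1.55e-34), while the p53 targets Mdm2 and Fas and the polo-like kinase gene Plk2 rose by 1.38, 1.74 and 1.38 on the log2 scale; in that list 11 of 21 expressed members rose and 7 fell. Of 22 apoptosis regulators 14 fell and 8 rose, near the 61.9% and 29.2% of all expressed genes; those that fell included Bak1, Bcl2 and the necroptosis kinases Ripk1 and Ripk3 (log2 -1.57, -1.69, -1.67 and -1.41). Of the Toll-like receptors and adaptors, Tlr4, the endotoxin receptor, fell by 2.71 and Unc93b1, the chaperone of endosomal receptors, by 1.84, whereas Irak3, a negative regulator, and Irak2 rose by 1.97 and 1.72. Among proteases and their regulators, Mmp19, Adam8 and Plau, the urokinase gene, fell by 3.71, 2.12 and 1.80.

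Immediate early and lineage transcription factor genes were divided. Egr2, Myc and Ier2 fell by 2.92, 2.61 and 2.14, and 10 of 23 immediate early genes rose and 12 fell. Bhlhe41 rose by 2.25, and 18 of 26 myeloid transcription factor genes fell, beside 61.9% of all expressed genes. Of 10 erythroid and megakaryocyte genes 8 fell and 2 rose, with Pf4, platelet factor 4, higher by 0.71 and Itga2b, the CD41 integrin, at 39.5, 40.2 and 32.4 CPM in EMT6 medium cultures, against 309, 299 and 310.4 CPM in GM-CSF cultures (log2 fold change -3.03 ± 0.06, adjusted p = 2.65e-37). Among complement genes, properdin (Cfp) and the C5a receptor (C5ar1) fell by 2.51 and 2.17, and of 7 NADPH oxidase genes 5 fell and 0 rose. The high affinity IgE receptor chain Fcer1a fell by 3.18 and the neonatal Fc receptor Fcgrt by 1.80.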
